A study of Mus musculus with 8 samples.

Results

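The genes of granulocyte colony-stimulating factor (G-CSF) signalling followed here were Csf3r, Stat3 and Socs3, measured by 7 of the 45101 probe sets on the array: 1 for Csf3r (1418806_AT), 3 for Stat3 (1424272_AT, 1426587_A_AT and 1460700_AT) and 3 for Socs3 (1416576_AT, 1455899_X_AT and 1456212_X_AT). The 7 were taken by identifier, with earlier results of these data known. Their gene names come from the list of members, because neither the deposited table nor the RefSeq gene table pairs a probe set with a gene, and 0 of the 7 identifiers were found in the latter. Other probe sets for these genes, if any, were not analysed here.

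Cultured mouse bone marrow cells were profiled in 4 groups of 2 arrays, wild-type or miR-223 null, at day 4 or day 8. Day 4 cells were progenitors grown for 4 days with G-CSF and stem cell factor (SCF), then sorted for c-Kit and against Gr-1. Day 8 cells were mature neutrophils grown for 6 days with both factors and then for 42 hours in medium from which SCF was left out, and were sorted against c-Kit and for Gr-1. All 4 groups had therefore been exposed to G-CSF, and stage, time in culture, SCF withdrawal and the sort gate differ together between the days and cannot be told apart. The labels give neither the mouse strain, the design of the null allele nor whether the 2 arrays of a group came from separate animals, so each p-value measures the spread between arrays, which may be technical. The stages were not checked against defining markers, and the loss of miR-223 was not checked either, since no probe set could be assigned to those genes.

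G-CSF is the main growth factor of the neutrophil lineage. It binds the receptor encoded by Csf3r, which has no kinase of its own and signals through Janus kinases. These phosphorylate STAT3, a transcription factor that then enters the nucleus. Among the genes STAT3 switches on is Socs3, whose protein binds the activated receptor and its kinases and shuts the signal down, so the 3 genes encode the receptor, the messenger and the brake of a feedback loop. miR-223 is a microRNA of myeloid cells that pairs through its seed with target messenger RNAs.

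The mature sequences of miR-223, the microRNA after which the labels name the null genotype, are shown here. The gene lies on the X chromosome (RefSeq, GRCm38.p6), with the 3p arm at chrX:96242884-96242905 and the 5p arm at chrX:96242842-96242864, both on the plus strand. Capitals mark the seed, bases 2 to 8.
mmu-miR-223-3p: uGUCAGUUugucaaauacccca
mmu-miR-223-5p: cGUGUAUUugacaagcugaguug

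Values were log2 signals as deposited, and a difference of 1 is a 2-fold change. Of the 45037 probe sets without controls, the 22519 with a mean over all arrays of 5.51 or more were tested in a single limma fit, and "called" means a Benjamini-Hochberg adjusted p below 0.05 over all of them. All 7 members passed this filter. For 6 of them every array lay far above it, whereas Stat3 1424272_AT passed by 0.06 and only through its day 8 arrays, so its change between the days was in part a condition of its being tested and it is kept out of the counts of members called between the days. The 8 array medians lay between 5.44 and 5.50, and the 2 arrays of a group correlated at 0.993 to 0.997 across tested probe sets. The beta-actin control signal at the 3' end over that at the 5' end, which rises as RNA degrades, lay on the log2 scale between 0.36 and 0.44 for day 4 arrays and between 0.10 and 0.17 for day 8 arrays, and the part of this in the changes between days was not tested. In RNA from sorted populations, a change in the share of expressing cells and a change in RNA per cell cannot be told apart.

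**Figure D1:**
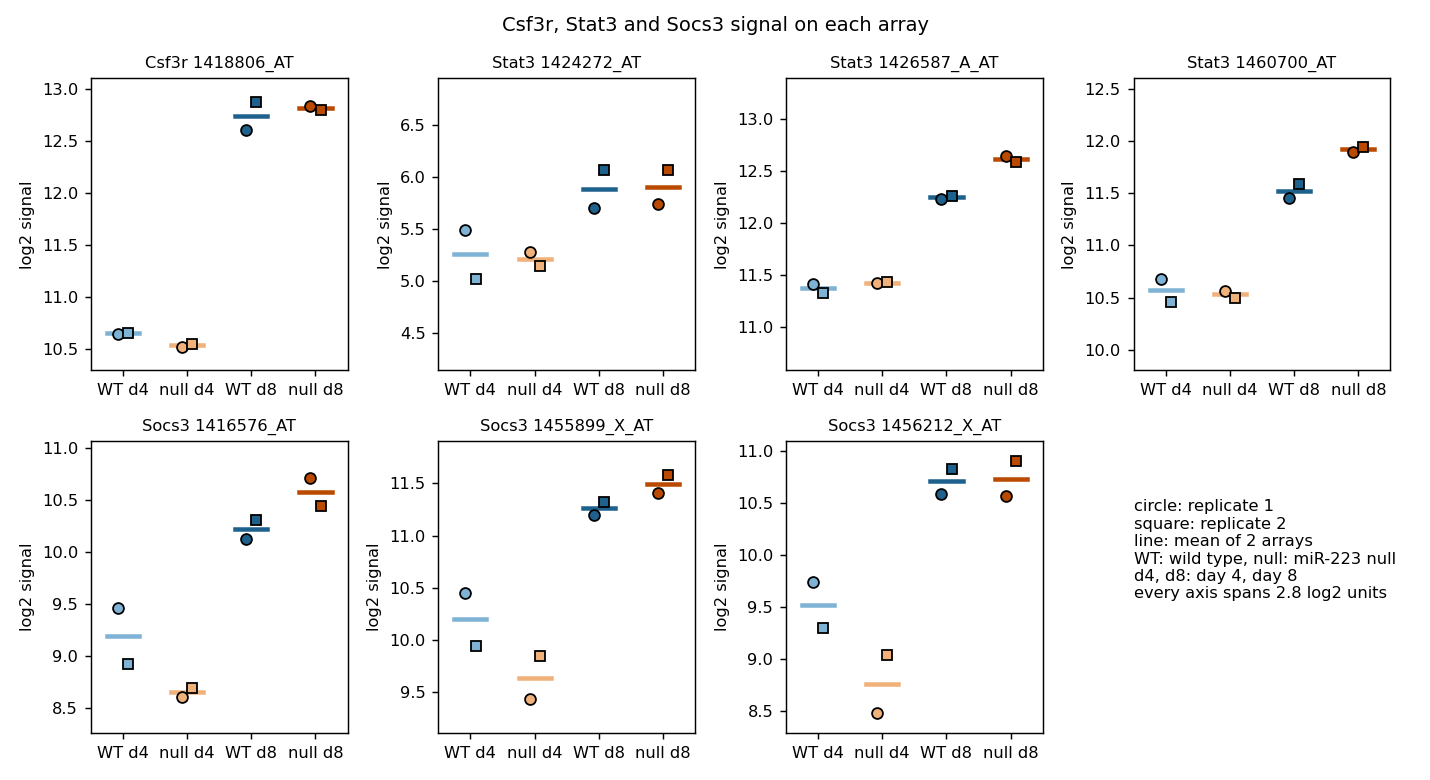
Log2 signal of each member on each array, with groups on the x axis (WT is wild type, d4 and d8 are the days), a circle for replicate 1, a square for replicate 2 and a line at the mean of 2 arrays; every axis spans the same number of log2 units. All members were higher at day 8 than at day 4, and the Socs3 arrays of wild-type day 4 cells lie apart from each other.

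The question of how the pathway is set in progenitors and mature neutrophils was addressed first at the receptor. Csf3r rose over 4-fold with maturation in both genotypes, and its level did not separate the genotypes by the test on either day. In wild-type progenitors its log2 signal was 10.65 and 10.66 on the 2 arrays, and in wild-type neutrophils 12.61 and 12.87. In null cells it was 10.53 and 10.55 at day 4 and 12.83 and 12.79 at day 8. Every day 8 array was thus above every day 4 array, by at least 1.95 in wild type and 2.24 in null. The rise was 4.25-fold in wild type (log2 change 2.09, SE 0.08, limma adjusted p = 1.6e-09) and 4.84-fold in null (2.27, SE 0.08, adjusted p = 7.6e-10). Among the tested probe sets, 9.40% changed at least as much in wild type and 8.21% in null.

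The order of the Csf3r group means, from the lowest, was null day 4, wild-type day 4, wild-type day 8 and null day 8. The arrays of the day 8 groups overlapped. At day 4 those of the genotypes did not, but lay only 0.10 apart. Null minus wild type was -0.12 at day 4 (95% interval -0.29 to 0.06, limma adjusted p = 0.49) and 0.07 at day 8 (-0.10 to 0.24, adjusted p = 0.68), and the difference between these effects was 0.19 (-0.06 to 0.43, adjusted p = 0.45). The day 8 order of the genotypes turned over when the arrays were scaled to the hybridization controls (-0.02) and without wild-type day 8 replicate 1 (-0.06), while the difference was 0.20 without wild-type day 8 replicate 2.

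The Csf3r gene lies at chr4:126023441-126044975 (GRCm38.p6, RefSeq). The 250 bases before the RefSeq start site of each of the 3 genes were searched on both strands for 3 words. They were TTCNNNGAA, a form of the site STAT factors recognize, and TTGCNNAA, a form of the C/EBP site. The last was GAGGAA, a core that ETS factors such as PU.1 recognize. C/EBP factors and PU.1 are regulators of granulocyte genes. The Csf3r window held 1 match, to GAGGAA, from 86 to 81 bases before the start site at chr4:126024563-126024588 with its flanks (plus strand), and no match to the others. Capitals mark the word. GAGGAA was found in 23.3% of the 32851 promoter windows of this length, so a match is common.
Csf3r: tccttcctgaGAGGAAggggctgtct

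Stat3, the transcription factor downstream of the receptor, rose about 2-fold with maturation. Of the 3 genes, only Stat3 had probe sets called between the genotypes, 2 of its 3, at day 8. The mean of its 3 probe sets was not called there (limma adjusted p = 0.17). At 1426587_A_AT, whose suffix marks probes that match transcript variants of a gene, the log2 signal in wild-type cells was 11.42 and 11.33 at day 4 and 12.23 and 12.26 at day 8. In null cells it was 11.42 and 11.43 at day 4 and 12.64 and 12.58 at day 8. The progenitor means of the genotypes differed by 0.05, and both null neutrophil arrays stood above both wild-type neutrophil arrays. The rise from day 4 to day 8 was 1.83-fold in wild type (log2 change 0.87, SE 0.06, limma adjusted p = 9.4e-08) and 2.28-fold in null (1.19, SE 0.06, adjusted p = 7.5e-09).

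The second bright Stat3 probe set, 1460700_AT, had the same pattern. Its log2 signal was 10.68 and 10.46 in wild-type and 10.56 and 10.50 in null progenitors, whose arrays overlapped. At day 8 it was 11.46 and 11.59 in wild-type and 11.90 and 11.95 in null neutrophils, which did not overlap. It rose 1.94-fold in wild type (log2 change 0.95, SE 0.08, limma adjusted p = 7.5e-07) and 2.62-fold in null (1.39, SE 0.08, adjusted p = 3.1e-08). A rise of this size was usual over maturation: 35.1% of tested probe sets changed at least as much in wild type and 22.6% in null. Over the 8 arrays the centred profiles of the 2 bright probe sets differed by 0.09 (root mean square, log2).

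The third Stat3 probe set, 1424272_AT, was dim, with 5.49 and 5.02 in wild-type and 5.28 and 5.15 in null progenitors. Its day 8 values were 5.70 and 6.06 in wild type and 5.75 and 6.07 in null. Day 8 arrays were above day 4 arrays in each genotype and the genotypes overlapped on both days. The rises, 0.63 in wild type (SE 0.19, limma adjusted p = 0.012) and 0.69 in null (SE 0.19, adjusted p = 0.0072), carry the limit of the filter given above. Leaving out replicate 2 of wild type ended the call there, both at day 4 (0.39) and at day 8 (0.44). With no single array left out, the limma adjusted p of this probe set in wild type ran from 0.011 (robust variance) to 0.045 (cyclic loess). The mean of the 3 Stat3 probe sets gave 1.7e-05. In null cells the call ended when null day 8 replicate 2 was left out (0.53) and under scaling to the hybridization controls (0.34, adjusted p = 0.11). With no single array left out, its lowest limma adjusted p in null was 0.0040, with only the null groups in the fit. The mean of the 3 Stat3 probe sets gave 1.4e-06.

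The Stat3 gene lies at chr11:100886806-100939594 (GRCm38.p6, RefSeq), and the 250 bases before its start site held no match to any of the 3 words.

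Socs3, the feedback inhibitor, rose with maturation at all 3 of its probe sets, about 2-fold in wild-type and nearly 4-fold in null cells. At 1416576_AT the log2 signal was 9.46 and 8.92 in wild-type progenitors and 10.13 and 10.30 in wild-type neutrophils. It was 8.61 and 8.70 in null progenitors and 10.71 and 10.44 in null neutrophils. The 4 groups did not overlap, the null arrays being the lowest at day 4 and the highest at day 8. Neither genotype difference was called (limma adjusted p = 0.096 at day 4 and 0.22 at day 8). Arrays of the genotypes were apart for 48.9% of tested probe sets at day 4 and 51% at day 8. They were apart in opposite directions on the 2 days for 10.3%. The rise was 2.04-fold in wild type (log2 change 1.03, SE 0.15, limma adjusted p = 8.7e-05) and 3.79-fold in null (1.92, SE 0.15, adjusted p = 4.4e-07).

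The other Socs3 probe sets carry a suffix that marks probes shared with other transcripts, so their signal may include other RNAs. At 1455899_X_AT the log2 signal was 10.45 and 9.94 in wild-type and 9.43 and 9.85 in null progenitors, and 11.20 and 11.32 in wild-type and 11.41 and 11.58 in null neutrophils. Again no groups overlapped and null cells held both ends of the range. Neither genotype difference was called (limma adjusted p = 0.099 at day 4 and 0.47 at day 8). The signal rose 2.09-fold in wild type (1.06, SE 0.16, limma adjusted p = 0.00010) and 3.63-fold in null (1.86, SE 0.16, adjusted p = 9.3e-07).

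At 1456212_X_AT the log2 signal was 9.74 and 9.29 in wild-type and 8.48 and 9.04 in null progenitors. In neutrophils it was 10.59 and 10.82 in wild type and 10.57 and 10.90 in null, so that the genotypes overlapped at day 8 and were apart at day 4. The day 4 difference between the genotypes was not called (limma adjusted p = 0.065). The signal rose 2.28-fold in wild type (1.19, SE 0.19, limma adjusted p = 0.00015) and 3.91-fold in null (1.97, SE 0.19, adjusted p = 2.3e-06). Between 27.1% and 32.4% of tested probe sets changed as much as Socs3 in wild type, and between 11.8% and 13.4% in null.

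The Socs3 gene lies at chr11:117966079-117970336 on the minus strand (GRCm38.p6, RefSeq). Its window held 1 match to TTCNNNGAA, the STAT word, from 154 to 146 bases before the start site at chr11:117969502-117969530 with its flanks, and none to the other words. It is printed 5′ to 3′ on the strand of the gene, with the word in capitals. The word was found in 7.02% of the 32851 windows and TTGCNNAA in 9.56%. It reads the same on both strands in its fixed letters. The annotated genes of Socs3 and Csf3r begin upstream of the start sites used, so either match may lie within a longer transcript.
Socs3: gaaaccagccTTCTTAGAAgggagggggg

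Across maturation, the 6 members other than the dim Stat3 probe set were called higher at day 8 in both genotypes, with no array overlap between the days. Over all 22519 tested probe sets, 77.2% were called in wild type and 75.9% in null, 35.5% and 36% as higher, and 88.8% and 89.6% had arrays that did not overlap. A call between the days was therefore the usual outcome, and the members stood with the smaller share that rose. The 6 stand for 3 genes, and probe sets listed for the same gene are not independent measures of it. No alternative setting ended the call of any of these 6 or turned its direction. Scaling to the hybridization controls moved the median change of all tested probe sets to -0.21 in wild type (-0.04 as deposited) and to -0.35 in null (0.00 as deposited), and Csf3r was still higher at day 8 by 1.92 in both genotypes under it.

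**Figure D2:**
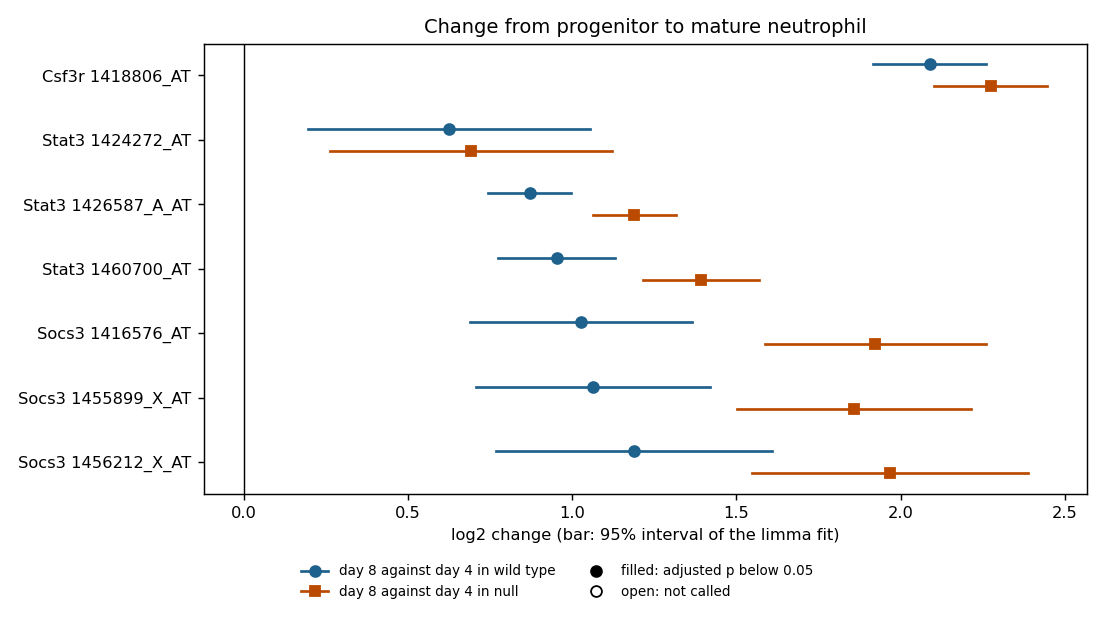
Log2 change from day 4 to day 8 on the x axis for each member, with circles for wild type, squares for null and bars for the 95% interval of the limma fit; filled symbols are called. All changes are above 0, and those of the members other than the dim Stat3 probe set are called. The symbols of the dim Stat3 probe set are filled too, but its change was in part a condition of its being tested. It is therefore kept out of the counts of members called. The largest changes are those of Csf3r at 2.09 and 2.27. The Socs3 changes in null cells (1.86 to 1.97) lie to the right of those in wild type (1.03 to 1.19).

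The effect of miR-223 loss on these transcripts was examined on each day. In mature neutrophils Stat3 was higher in null cells at its 2 bright probe sets, by 1.29-fold at 1426587_A_AT (log2 change 0.37, SE 0.06, limma adjusted p = 0.0046) and 1.32-fold at 1460700_AT (0.40, SE 0.08, adjusted p = 0.018). The nearest arrays of the genotypes were 0.32 and 0.31 apart there. At the dim Stat3 probe set the difference was 0.03 (95% interval -0.40 to 0.45), wide enough to hold the other 2. The mean of the 3 probe sets differed by 0.26 (SE 0.10) and was not called (adjusted p = 0.17).

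Socs3 in neutrophils was not called at any probe set, with null minus wild type at 0.36 (95% interval 0.02 to 0.70) for 1416576_AT, 0.23 (-0.12 to 0.59) for 1455899_X_AT and 0.03 (-0.39 to 0.45) for 1456212_X_AT. The limma adjusted p-values were 0.22, 0.47 and 0.96. In all, 2 of the 7 members were called at day 8, both Stat3, against 5.31% of tested probe sets, and 4 of the 7 had arrays without overlap, against 51%. The sign at day 8 was positive for all 7 as deposited, as it was for 54.9% of tested probe sets, but scaled to the hybridization controls it was negative for Csf3r (-0.02), 1424272_AT (-0.07) and 1456212_X_AT (-0.07), and 1456212_X_AT also turned after quantile normalization (-0.0031) and cyclic loess (-0.0099). Leaving out single day 8 arrays turned these 3 as well, with values down to -0.06, -0.16 and -0.14.

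The Stat3 calls at day 8 were not kept under every alternative. That of 1426587_A_AT was lost without null day 8 replicate 1 (log2 change 0.34, adjusted p = 0.062) and when scaled to the hybridization controls (0.28, adjusted p = 0.17), while over its 19 alternatives the adjusted p lay between 0.0033 and 0.17. That of 1460700_AT was lost without any 1 of the 4 day 8 arrays (0.34 to 0.46). It was also lost without the intensity trend (limma adjusted p = 0.075) and when scaled to those controls (0.31, adjusted p = 0.14). With no single array left out, its lowest adjusted p was 0.0062, with only the day 8 groups in the fit. Both probe sets stayed positive in every alternative.

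In progenitors the genotypes differed most at Socs3, where the null arrays were lower than the wild-type arrays at all 3 probe sets, but no member was called. Null minus wild type was -0.54 (SE 0.15, 95% interval -0.87 to -0.20) for 1416576_AT, -0.56 (SE 0.16, -0.92 to -0.20) for 1455899_X_AT and -0.75 (SE 0.19, -1.17 to -0.33) for 1456212_X_AT, or 1.45-fold, 1.47-fold and 1.69-fold lower. The limma adjusted p-values were 0.096, 0.099 and 0.065. Differences this large were uncommon: between 0.67% and 2.30% of tested probe sets differed as much at day 4. The nearest arrays of the genotypes were 0.22, 0.10 and 0.25 apart.

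The spread within groups was of a like size to this Socs3 difference. Wild-type replicate 1 was above replicate 2 by 0.54, 0.51 and 0.45 at the 3 probe sets, and null replicate 2 was above replicate 1 by 0.09, 0.42 and 0.56. Without wild-type day 4 replicate 1, the Socs3 differences were -0.27, -0.31 and -0.53 (adjusted p from 0.32 to 0.41). Without wild-type day 4 replicate 2 they were -0.80, -0.81 and -0.98, and all 3 were called (adjusted p = 0.0066, 0.015 and 0.027), in a fit that called 7.43% of tested probe sets. Without null day 4 replicate 2, 1456212_X_AT was also called (-1.03, adjusted p = 0.041). It was called as well when scaled to the hybridization controls (-0.66, adjusted p = 0.017). Over their 19 alternatives the adjusted p-values ran from 0.0066 to 0.38, from 0.015 to 0.45 and from 0.017 to 0.34, and every value was negative.

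Stat3 in progenitors was not called, with differences of -0.04, 0.05 and -0.04 at 1424272_AT, 1426587_A_AT and 1460700_AT, and with 95% intervals of -0.08 to 0.18 and -0.22 to 0.14 for the bright 2. Limma called 0 of the 7 members at day 4, against 2.72% of tested probe sets, and 3 of the 7, all Socs3, had an unadjusted p below 0.05, against 18% of tested probe sets. Arrays did not overlap for 5 of the 7, against 48.9%. The 3 Socs3 probe sets and Csf3r were lower in null cells, while Stat3 1426587_A_AT was higher and only 0.0005 apart. No other tool was run.

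**Figure D3:**
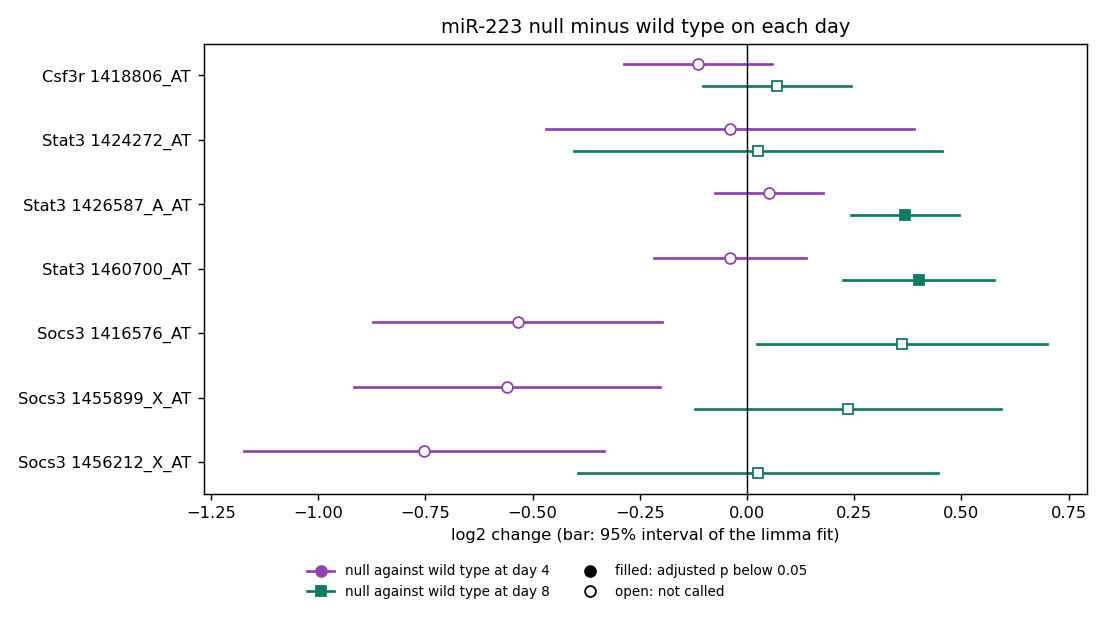
Log2 change of null against wild type on the x axis for each member, with circles for day 4, squares for day 8 and bars for the 95% interval of the limma fit; filled symbols are called. The 2 filled squares are Stat3 at day 8 (0.37 and 0.40), and the Socs3 circles at day 4 lie between -0.75 and -0.54 with intervals below 0.

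**Figure D4:**
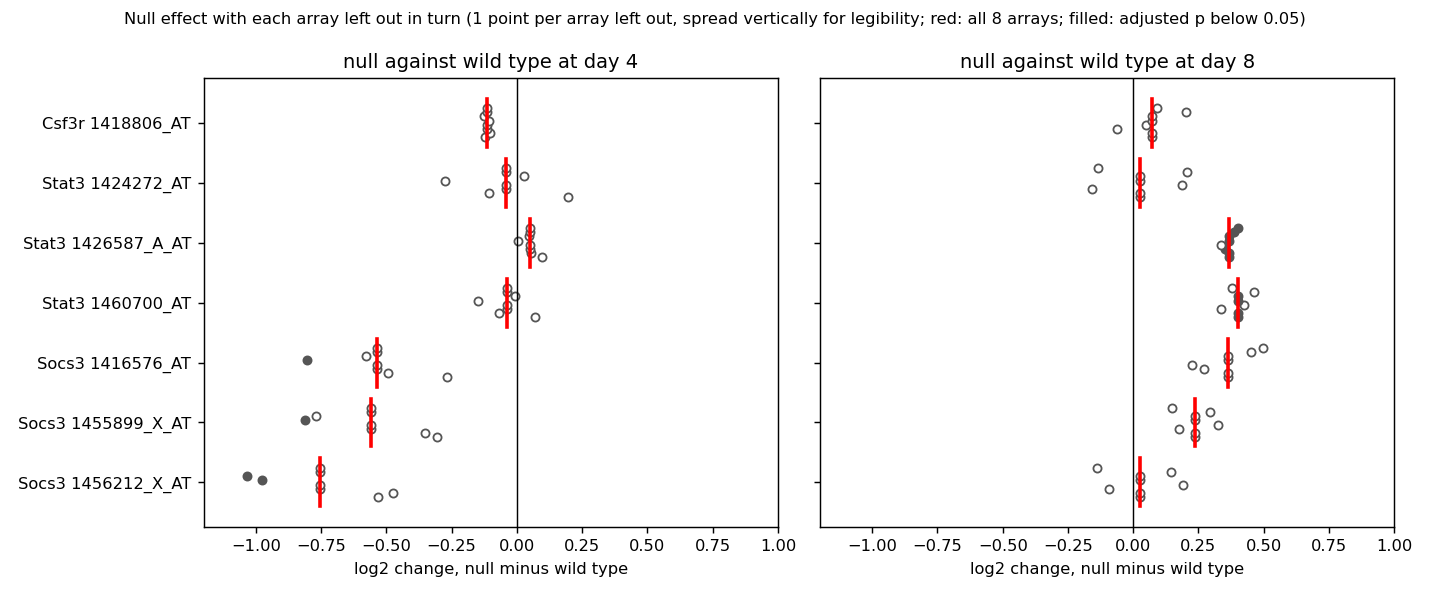
Log2 change of null against wild type on the x axis, at day 4 in the left panel and day 8 in the right, for each member with each of the 8 arrays left out in turn (points, filled where called) and with all arrays (red line). Socs3 at day 4 runs from -1.03 to -0.27 and is called at 4 points, while Stat3 at the bright probe sets at day 8 runs from 0.34 to 0.46.

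Whether the null effect differed between the days was tested by the interaction, which is also the difference between the genotypes in the rise with maturation. It was largest for Socs3: 0.90 (SE 0.22, 95% interval 0.42 to 1.37) at 1416576_AT, 0.80 (SE 0.23, 0.29 to 1.30) at 1455899_X_AT and 0.78 (SE 0.27, 0.19 to 1.37) at 1456212_X_AT. The Socs3 rise was thus 1.86-, 1.74- and 1.72-fold greater in null cells, but limma adjusted p-values were 0.071, 0.11 and 0.18. For the bright Stat3 probe sets it was 0.32 (SE 0.08, adjusted p = 0.080) and 0.44 (SE 0.11, adjusted p = 0.085), and for the dim one 0.07 (SE 0.27).

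Limma called 0 of the 7 members for this difference, against 1.66% of tested probe sets, while 5 of the 7 (the bright Stat3 and all Socs3 probe sets) had an unadjusted p below 0.05, against 16.5% of tested probe sets. All 7 values were positive as deposited, with a median of 0.44. So were 56.2% of those of all tested probe sets, whose median was 0.04. Scaled to the hybridization controls, Stat3 1424272_AT turned negative (-0.12) and Csf3r fell to 0.0008. Leaving out single arrays also turned Stat3 1424272_AT negative, down to -0.17. Without wild-type day 4 replicate 2, 4 members were called: 1426587_A_AT (0.36, adjusted p = 0.038), 1460700_AT (0.55, adjusted p = 0.019), 1416576_AT (1.16, adjusted p = 0.0060) and 1455899_X_AT (1.05, adjusted p = 0.021). That fit called 3.97% of tested probe sets. No other alternative gave a call, and the highest adjusted p of these 4 over their alternatives were 0.68, 0.44, 0.22 and 0.30. Because each group had 2 arrays, exact permutation of the arrays of 2 groups cannot give p below 0.333 for any member, and the calls depend on limma's pooled estimate of the spread.

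The members were compared with each other over the 8 arrays, which share the large step between the days. Csf3r correlated with the bright Stat3 probe sets at r = 0.970 and 0.972 and with Socs3 at 0.933 to 0.950, and Stat3 1460700_AT with Socs3 at 0.911 to 0.963. These values describe 4 groups of 2 arrays and carry no test. The Socs3 probe sets differed from each other by 0.13 to 0.25 (root mean square of centred log2 profiles) and from Csf3r by 0.42 to 0.43. Among probe sets not listed here for the same gene, the profile nearest to Csf3r was that of 1425609_AT, 0.05 away over the 8 arrays, and the nearest to Stat3 1426587_A_AT was 1437419_AT, 0.04 away. The nearest to a Socs3 probe set was 0.12 away. No gene name is at hand for either identifier.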

How the data were processed

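Total RNA of 8 samples was labelled with biotin and hybridized to Affymetrix arrays. The deposited values are log2 signals per probe set, the log base being read from the values. Per the submitters' processing notes, GCOS (no version stated) was used. How probes were summarized, corrected for background and normalized is not stated in the labels. Normalization can remove a change in total messenger RNA per cell, and background correction can move the dim Stat3 probe set.

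Probe sets with a mean of at least 5.51, the median of those without controls, were fitted with limma 3.58.1 (lmFit, then eBayes with trend = TRUE; R 4.3.3), with 4 group means and 4 residual degrees of freedom. Tests were two-sided and adjusted by Benjamini-Hochberg within each of the 5 comparisons. The precision of arrays is limited by their number: the median SE was 0.12 on the log2 scale between 2 groups over all tested probe sets and 0.15 over the members. The fit was tested on simulated data.

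All 7 members are named in every comparison. The lists of further pathway genes and of cell type markers were not used, because no table here names their probe sets. The members and lists were chosen with earlier results of these data known. Alternatives covered the filter, 4 normalizations, the variance model, the groups in the fit, the replicate block, the mean of a gene's probe sets and each array left out.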

Additional observations from a re-analysis of the deposited data

Results flagged for a closer look

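For Socs3 the null arrays were all below the wild-type arrays at day 4 and all above them at day 8 at 2 of its 3 probe sets, 1416576_AT (difference between the null effects 0.90 on the log2 scale) and 1455899_X_AT (0.80). It is this separation in opposite directions that marked them for a closer look, since the limma interaction test of the difference missed the threshold, with adjusted p = 0.071 and 0.11. Of all tested probe sets, 48.9% had arrays of the genotypes apart at day 4, 51% at day 8, and 10.3% were apart in opposite directions on the 2 days. The third Socs3 probe set, 1456212_X_AT, was apart at day 4 and overlapped at day 8. A large replicate spread in day 4 cells moved with the result, 0.54 and 0.51 between the wild-type arrays and 0.09 and 0.42 between the null arrays at these probe sets, and its part in the result was not tested beyond leaving out each array, which gave differences of 0.63 to 1.16 at 1416576_AT and 0.54 to 1.05 at 1455899_X_AT.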

How the results depend on the processing

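Counts of the 7 members called that moved are as follows. For null against wild type at day 8 (2 called), 0 were called when scaled to the hybridization controls and 1 without the intensity trend, and 0 to 2 with each array left out. At day 4 (0 called), 1 was called under that scaling and 0 to 3 with an array left out. For the difference between the days (0 called), it was 0 to 4 with an array left out. For day 8 against day 4 the 6 members other than the dim Stat3 probe set were called higher in both genotypes under every alternative run. Of 131 values per comparison of 2 groups, direction and side of the threshold were kept by 129 in each comparison of the days. For the null effect they were kept by 121 at day 8 and 126 at day 4, and by 120 of 124 for the difference. No called value changed sign. These values include those of the dim Stat3 probe set. The mean of the Stat3 or Socs3 probe sets is counted among them once for each of the 3 probe sets, so they are not separate checks.

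The replicate numbers of the labels are not stated to mark a shared animal or culture, and same-numbered arrays did not deviate together throughout (correlations of deviations between -0.05 and 0.22), so they were not taken as pairs. With the replicate block these 6 stayed called between the days in both genotypes, and 2, 0 and 0 of the 7 members were called for the null effect at day 8, at day 4 and for their difference, as without it.

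Over all tested probe sets, calls at day 8 were 1195, but 694 when scaled to the hybridization controls, 747 without the trend and 355 to 1691 with an array left out. At day 4 they were 613, but 222 without the trend, 98 with only the day 4 groups and 129 to 1674 with an array left out. For the difference they were 373, but 211 after quantile normalization, 199 after cyclic loess, 124 under the control scaling, 129 without the trend and 48 to 893 with an array left out. Calls that were higher made up 77.1%, 21.4% and 93.3% in these 3 comparisons and 47%, 51.9% and 49.2% under the control scaling, and 47.4% against 29.9% for the days in null. Cyclic loess gave 33.8% at day 4. The cause was not tested. The dim Stat3 probe set, 0.06 above the filter, is the member that signal over background limits most.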
